A study of Rattus norvegicus with 11 samples.

Results

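The 46 genes described here carry glucose carbon from the blood into the citrate cycle: 3 glucose transporters, 17 enzymes of glycolysis with lactate dehydrogenase, 10 genes of pyruvate entry into mitochondrial metabolism, 12 of the citrate cycle and 4 of the malate-aspartate shuttle. They were chosen by gene symbol, and members were the probe sets whose single symbol in the platform annotation was one of the 46. That gave 60 of the 15923 probe sets on the array, for 43 genes. Pkm, Dlat and Fh had no probe set with a single symbol, and Gapdh was met only by control probe sets of the array. The other 42 genes, all measured well enough to be tested, form the comparison. Total RNA of rat hippocampus had been measured on 11 arrays, 6 from rats given a control diet and 5 from rats given a ketogenic diet, a high-fat, low-carbohydrate feeding regime used against seizures. The sources used here give no strain, age, sex or time on the diet, and no treatment common to both groups is named.

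Brain tissue takes up glucose through Slc2a1 at the blood-brain barrier and in glia and through Slc2a3 in neurons. Glycolysis splits glucose to pyruvate, which is either turned to lactate or oxidised by the pyruvate dehydrogenase complex, an enzyme that kinases (Pdk1, Pdk2, Pdk3) switch off and a phosphatase (Pdp1) switches on. The citrate cycle then oxidises acetyl-CoA, whether it came from glucose, fat or ketone bodies, and a ketogenic diet supplies the brain with ketone bodies in place of part of its glucose. Ketone bodies reach the cycle below pyruvate dehydrogenase, and their activation draws on succinyl-CoA, the substrate of the enzyme that Suclg1 and Sucla2 encode parts of.

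Of the 42 genes, 5 were called, meaning an adjusted p under 0.05 in a limma fit over all 11899 tested probe sets. Idh2, Idh3g and Mdh2 rose on the ketogenic diet, and Suclg1 and Sucla2 fell. All 5 changes were small, between -16.0% and 22.3%. The 5 called genes are 11.9% of the 42, while 16.9% of all 8397 genes tested were called, 8.85% higher and 8.03% lower. By probe set, 6 of the 51 tested for these genes were called, 3 in each direction, against 16.5% of all, 8.62% higher and 7.86% lower. The median log2 fold change of the 42 genes was 0.002, and over all genes -0.0033. The median size of the change without its sign was 0.09 against 0.16 over all genes. Glucose uptake had 0 of 3 genes called, glycolysis 0 of 15, pyruvate entry 0 of 9, the citrate cycle 2 higher and 2 lower of 11, and the shuttle 1 higher of 4. At an unadjusted p under 0.05 in limma the first 3 steps had 0, 1 and 2 genes. These are levels in whole tissue, in which fewer cells of a type and less RNA per cell cannot be told apart, and p-values measure the spread between samples, which the labels do not say are separate animals.

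**Figure D1:**
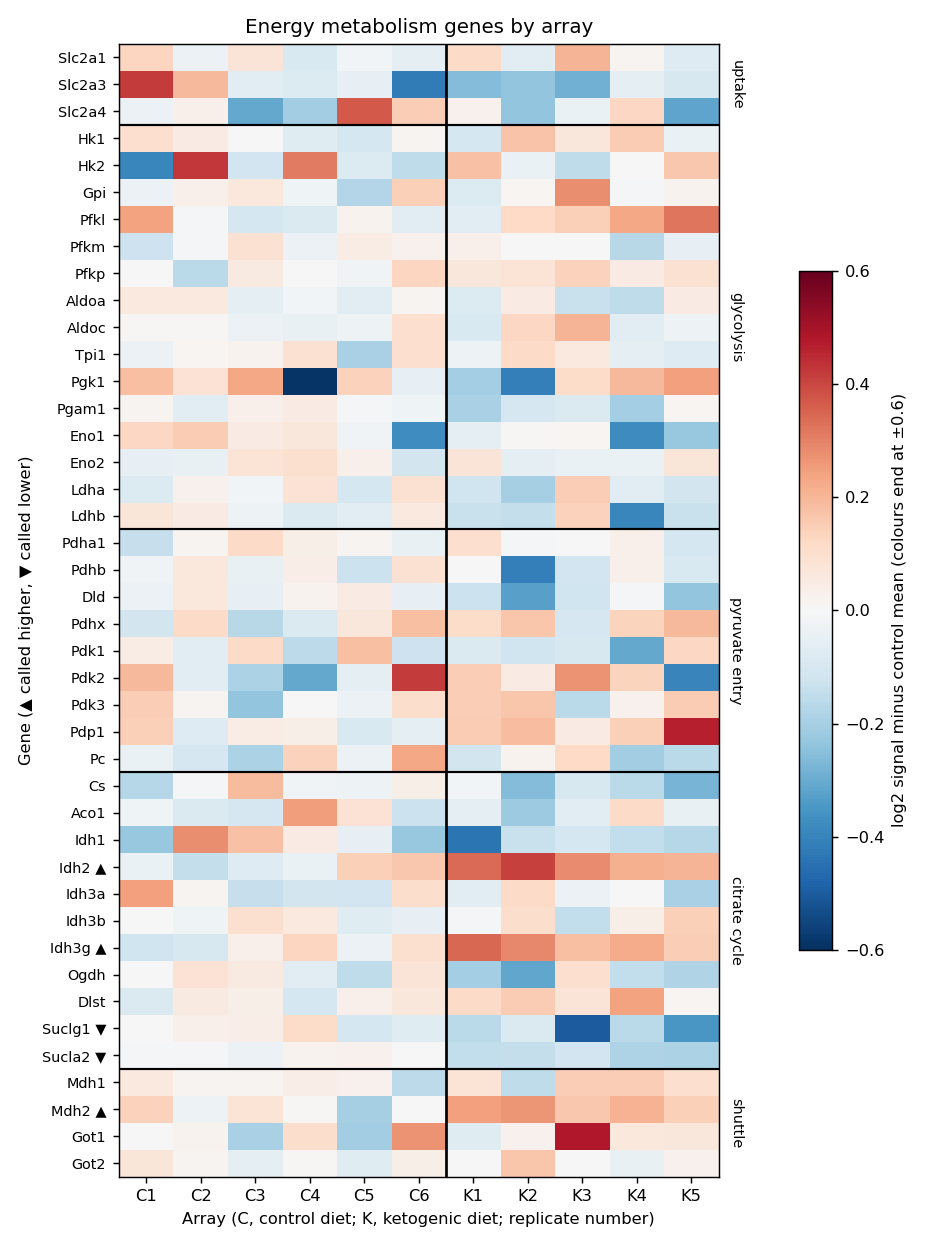
Each row is 1 of the 42 genes, ordered by step, and each column an array; colour gives the log2 signal minus the mean of the 6 control arrays, with colours ending at ±0.6. The rows of Idh2, Idh3g and Mdh2 are red on all 5 ketogenic arrays and those of Suclg1 and Sucla2 blue, while the glycolysis rows show no shared pattern by diet.

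The RefSeq sequences (build GRCr8) just upstream of the 5 called genes are shown because these genes were called in the reported setting, so that a reader can see the start of each. Each line holds the 250 bases before the annotated start, 5′ to 3′ on the strand of the gene. Idh2 lies on the minus strand (chr1:143467249-143467498), Idh3g on the minus strand (chrX:156675483-156675732) and Mdh2 on the minus strand (chr12:26543842-26544091). Suclg1 lies on the plus strand (chr4:106866079-106866328) and Sucla2 on the plus strand (chr15:55161644-55161893). Capitals mark every match, on either strand, to 1 of 6 short motifs.
Idh2: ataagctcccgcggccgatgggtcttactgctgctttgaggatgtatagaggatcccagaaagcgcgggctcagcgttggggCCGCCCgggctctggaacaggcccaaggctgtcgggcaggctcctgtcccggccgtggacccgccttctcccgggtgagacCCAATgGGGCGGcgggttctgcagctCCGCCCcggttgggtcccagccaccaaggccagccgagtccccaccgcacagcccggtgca
Idh3g: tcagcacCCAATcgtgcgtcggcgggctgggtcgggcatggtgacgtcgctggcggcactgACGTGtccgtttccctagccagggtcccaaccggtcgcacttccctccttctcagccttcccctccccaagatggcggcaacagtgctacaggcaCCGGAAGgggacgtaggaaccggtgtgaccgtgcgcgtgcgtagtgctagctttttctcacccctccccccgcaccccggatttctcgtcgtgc
Mdh2: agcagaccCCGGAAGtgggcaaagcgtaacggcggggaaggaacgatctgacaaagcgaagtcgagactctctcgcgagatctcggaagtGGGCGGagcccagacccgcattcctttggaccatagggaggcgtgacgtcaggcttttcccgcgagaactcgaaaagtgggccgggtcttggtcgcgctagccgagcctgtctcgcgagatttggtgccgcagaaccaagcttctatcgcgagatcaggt
Suclg1: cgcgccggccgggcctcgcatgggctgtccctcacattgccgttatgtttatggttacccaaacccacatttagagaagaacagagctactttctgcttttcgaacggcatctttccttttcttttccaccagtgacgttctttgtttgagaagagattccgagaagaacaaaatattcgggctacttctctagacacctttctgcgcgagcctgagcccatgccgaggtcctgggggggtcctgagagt
Sucla2: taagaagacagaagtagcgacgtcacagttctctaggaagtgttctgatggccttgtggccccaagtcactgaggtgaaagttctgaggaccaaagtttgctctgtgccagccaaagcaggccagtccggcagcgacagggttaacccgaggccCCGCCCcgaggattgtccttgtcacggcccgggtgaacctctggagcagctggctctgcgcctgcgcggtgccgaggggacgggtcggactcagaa
The motifs were the NRF1 site (TGCGCA), an ETS site (CCGGAAG), the site of oestrogen-related receptors (AAGGTCA), the core of hypoxia response elements (ACGTG), the GC box (GGGCGG) and the CCAAT box (CCAAT). Idh2 held 3 GC boxes and 1 CCAAT box, with the middle GC box 1 base from the CCAAT box. Idh3g held 1 ETS site, 1 hypoxia response core and 1 CCAAT box. Mdh2 held 1 ETS site and 1 GC box, Sucla2 held 1 GC box, and none of these letters were in the Suclg1 window. Among 40 member genes with an entry, 24 held a GC box and 13 a hypoxia response core, or 60.0% and 32.5%. The shares over all 33469 promoters in the table were 30.5% and 16.6%. The NRF1 site was in 5 of 40 member windows and the ETS site in 4, against 6.14% and 7.27% of all. A CCAAT box was in 16 of 40, against 34.0%, and the oestrogen-related receptor site in 0 of 40, against 3.99%. A match describes letters in this window, not binding.

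Glucose transporters did not pass the test. Slc2a1, the transporter of the blood-brain barrier and glia, had nearly the same mean on both diets. On the log2 scale Slc2a1 ran from 8.03 to 8.25 on the control arrays, with a median of 8.10, and lay at 8.24, 8.06, 8.33, 8.14 and 8.05 on ketogenic replicates 1 to 5. The groups overlapped, with ketogenic replicate 3 highest of all arrays, and the difference was 2.67% (95% interval -7.65 to 14.1%) (log2 fold change 0.04, SE 0.07, adjusted p = 0.746, limma). For the neuronal transporter, Slc2a3 ran from 7.49 to 8.33 on the control arrays, with a median of 7.85, and lay at 7.64, 7.67, 7.62, 7.85 and 7.81 on ketogenic replicates 1 to 5. Ketogenic values sat inside the control range, whose width came from control replicates 1 and 6, and the difference was -12.2% (95% interval -26.3 to 4.66%) (log2 fold change -0.19, SE 0.12, adjusted p = 0.284, limma). The other tested probe set of Slc2a3 had the same sign (-0.26, adjusted p = 0.143, limma). Slc2a4, the insulin-responsive transporter best known from muscle and fat, had probe sets of opposite sign, at -0.09 and 0.06.

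In glycolysis, none of the 15 tested genes was called, 8 had a positive and 7 a negative sign, and log2 fold changes ran from -0.13 (Ldhb) to 0.15 (Pfkl). Their median was 0.00098. For 13 of the 15 the whole 95% interval lay within a change of 25% in either direction, Hk2 and Pfkl being the exceptions. These values hold for the quantile scaling. With the deposited scaling the median was 0.11 and with 75th percentile centring 0.14, and Pfkp and Eno2 were called higher under both. Unadjusted, 1 of the 15, Pgam1, had p under 0.05. Hk1, the hexokinase that commits glucose to metabolism in brain, is an example: Hk1 ran from 9.44 to 9.65 on the control arrays, with a median of 9.56, and lay at 9.44, 9.72, 9.62, 9.70 and 9.51 on ketogenic replicates 1 to 5. Its difference was 3.45% (95% interval -5.66 to 13.5%) (log2 fold change 0.05, SE 0.06, adjusted p = 0.614, limma). Phosphofructokinase sets the pace of the pathway, and its 3 subunit genes had fold changes of -0.04 for Pfkm, 0.15 for Pfkl and 0.09 for Pfkp (adjusted p = 0.665, 0.219 and 0.301, limma). For the muscle-type subunit, Pfkm ran from 9.56 to 9.77 on the control arrays, with a median of 9.69, and lay at 9.72, 9.68, 9.68, 9.52 and 9.63 on ketogenic replicates 1 to 5. For the platelet-type subunit, Pfkp ran from 9.04 to 9.33 on the control arrays, with a median of 9.20, and lay at 9.27, 9.28, 9.34, 9.25 and 9.29 on ketogenic replicates 1 to 5. Pfkp values were tightly grouped on the ketogenic diet, at the upper end of the control range with replicate 3 just above it, and control replicate 2 was lowest.

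Further down the pathway, Gpi, Aldoa, Aldoc, Tpi1, Pgk1 and Eno2 had log2 fold changes between -0.055 and 0.05. For Pgk1 this was -0.01 (SE 0.14), and its other tested probe set was at -0.08 (SE 0.05, adjusted p = 0.319, limma). Aldoa and Aldoc encode aldolases, Tpi1 triose phosphate isomerase, Pgk1 the first ATP-forming enzyme of the pathway and Eno2 the neuronal enolase. Eno1, the ubiquitous enolase, was at -0.13 and Hk2 at 0.03. Pgam1, phosphoglycerate mutase, came nearest to a call of the 15, at -7.62% (95% interval -13.5 to -1.35%) (log2 fold change -0.11, SE 0.04, adjusted p = 0.0884, limma). Pgam1 ran from 11.23 to 11.34 on the control arrays, with a median of 11.30, and lay at 11.10, 11.20, 11.21, 11.09 and 11.31 on ketogenic replicates 1 to 5. Ketogenic replicate 5 lay inside the control range and the other 4 below it. Without ketogenic replicate 5 Pgam1 was called lower. Its sign turned under other scalings, to 0.01 on the deposited scale and 0.05 with 75th percentile centring (adjusted p = 0.873 and 0.551, limma).

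Lactate dehydrogenase interconverts pyruvate and lactate, and its subunits come from Ldha, dominant in glycolytic cells, and Ldhb, dominant in oxidative ones. Ldha ran from 9.66 to 9.86 on the control arrays, with a median of 9.77, and lay at 9.65, 9.57, 9.91, 9.70 and 9.66 on ketogenic replicates 1 to 5. Ldhb ran from 10.84 to 11.002 on the control arrays, with a median of 10.94, and lay at 10.80, 10.78, 11.07, 10.54 and 10.80 on ketogenic replicates 1 to 5. The groups overlapped for both genes, and ketogenic replicate 3 was the highest of all 11 arrays for each. For Ldhb the other 4 ketogenic arrays lay below every control. The differences were -4.79% (95% interval -13.5 to 4.74%) for Ldha (adjusted p = 0.464, limma) and -8.75% (95% interval -17.9 to 1.48%) for Ldhb (adjusted p = 0.212, limma). Without ketogenic replicate 3 Ldhb was called lower (log2 fold change -0.20, adjusted p = 0.0251, limma). The sample title of that array ends in a letter that the other titles lack, and its Gapdh end ratio, described next, lay in the control range, while its actin end ratio, at 0.77, lay above the control maximum of 0.75.

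Gapdh, the glycolytic enzyme often used as a reference gene, was measured by 3 control probe sets, at the 3 prime end, the middle and the 5 prime end of its transcript. Fitted together with the tested probe sets (this fit was added once the data were known), they had log2 fold changes of 0.09, 0.06 and -0.13 in that order (adjusted p = 0.119, 0.342 and 0.0937, limma). The ends of one transcript therefore differed in sign, and none was called. At the 3 prime end, Gapdh ran from 11.34 to 11.47 on the control arrays, with a median of 11.42, and lay at 11.43, 11.51, 11.51, 11.49 and 11.58 on ketogenic replicates 1 to 5. At the 5 prime end, it ran from 11.33 to 11.42 on the control arrays, with a median of 11.38, and lay at 11.05, 11.21, 11.34, 11.25 and 11.36 on ketogenic replicates 1 to 5. The log2 ratio of the ends, a common measure of RNA integrity, ran from -0.07 to 0.15 in the 6 controls, against 0.34, 0.31, 0.13, 0.22 and 0.24 in the ketogenic samples. It was higher on the ketogenic diet by 0.20 (exact two-sided permutation test, p = 0.00649, adjusted 0.0108 over 5 array measures). The same ratio for actin did not overlap between diets and was higher by 0.19 (exact p = 0.00216, the smallest that 6 against 5 samples allow, adjusted 0.00541). The 3 hexokinase control probe sets of the Hk1 transcript gave a ratio that was higher by 0.20 and overlapped (exact p = 0.0866, adjusted 0.108). Their own fold changes were -0.15, 0.11 and -0.24 from the 3 prime end to the 5 prime end, against 0.05 for the tested probe set of Hk1. With the Gapdh and actin ratios as covariates, 0 of the 42 genes were called in limma, 2 had an unadjusted p under 0.05, and 6 of 11899 probe sets were called. Since the actin ratio separated the diets fully and the Gapdh ratio nearly so, this fit cannot tell diet and end ratios apart.

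**Figure D2:**
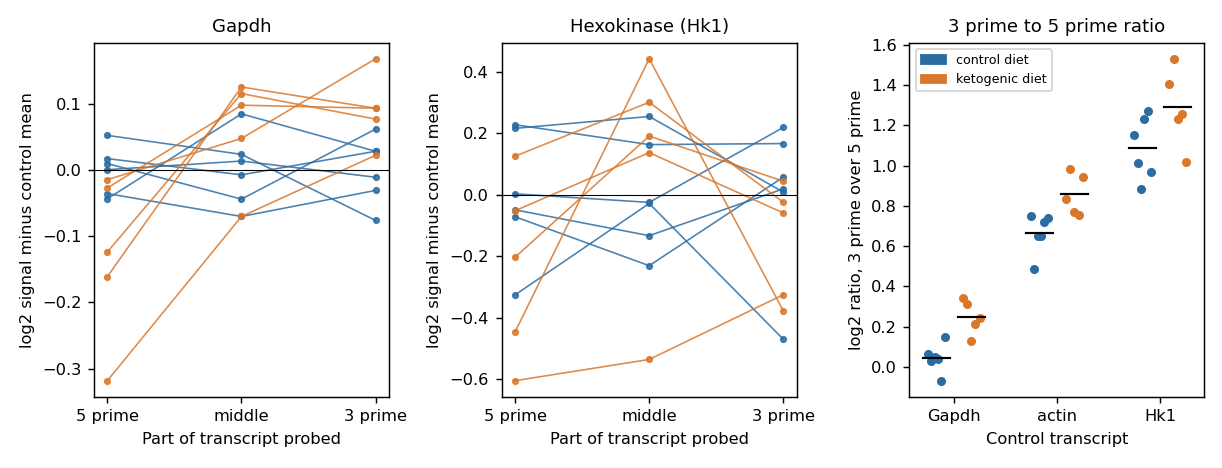
The left and middle panels plot, for each array, the log2 signal minus the control mean at the 5 prime, middle and 3 prime control probe sets of Gapdh and hexokinase, and the right panel the log2 ratio of 3 prime over 5 prime with group means as bars. Blue is the control and orange the ketogenic diet; the Gapdh ratio was above every control array on 4 of 5 ketogenic arrays and the actin ratio on all 5.

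At the entry of pyruvate into the mitochondrion, none of the 9 tested genes was called. Pdha1 encodes the alpha subunit of the first enzyme of the pyruvate dehydrogenase complex, on which the kinases act. Pdha1 ran from 9.75 to 9.999 on the control arrays, with a median of 9.90, and lay at 9.98, 9.88, 9.88, 9.91 and 9.78 on ketogenic replicates 1 to 5. Ketogenic values lay inside the control range, and the difference was 0.214% (95% interval -7.57 to 8.65%) (adjusted p = 0.976, limma), while the other probe set of the gene was at -0.26 (SE 0.15, adjusted p = 0.260, limma). For the beta subunit gene, Pdhb ran from 9.53 to 9.74 on the control arrays, with a median of 9.66, and lay at 9.66, 9.24, 9.54, 9.68 and 9.56 on ketogenic replicates 1 to 5. Only ketogenic replicate 2 lay below the control range, and the difference was -7.79% (95% interval -17.4 to 2.95%) (log2 fold change -0.12, SE 0.07, adjusted p = 0.287, limma). Dld, the dihydrolipoamide dehydrogenase that pyruvate dehydrogenase shares with the oxoglutarate dehydrogenase complex, was at -0.16 (adjusted p = 0.0960, limma), and Pdhx, a structural protein of the complex, at 0.10. Both Pdhb and Dld were lowest on ketogenic replicate 2.

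The kinases that inactivate the complex showed no call, with log2 fold changes of -0.10 for Pdk1, 0.04 for Pdk2 and 0.06 for Pdk3. The other tested probe set of Pdk1 had the opposite sign, at 0.10 (adjusted p = 0.662, limma). Pdk2 had wide spread within each diet: Pdk2 ran from 7.80 to 8.52 on the control arrays, with a median of 8.04, and lay at 8.25, 8.15, 8.37, 8.23 and 7.71 on ketogenic replicates 1 to 5. Control replicate 6 and ketogenic replicate 5 were the extremes, and the interval of its difference, -15.6 to 25.3%, is wide. Pdk4, the kinase that fasting raises in several tissues, was at -0.15 (SE 0.11, adjusted p = 0.319, limma). Pdp1, which reverses the kinases, had a positive difference of 14.8% (95% interval 0.983 to 30.6%) (log2 fold change 0.20, SE 0.09, adjusted p = 0.124, limma), not past the threshold, with ketogenic replicate 5 at 7.49 above all others. Pc, pyruvate carboxylase, which refills the citrate cycle and in brain is largely astrocytic, was at -0.07. Of the pair that forms the mitochondrial pyruvate carrier, Mpc1 was at 0.05 (adjusted p = 0.557, limma). Mpc2 fell by 0.22 in log2 units (SE 0.07, adjusted p = 0.0379, limma). Mpc2 ran from 8.92 to 9.05 on the control arrays, with a median of 8.97, and lay at 8.75, 8.95, 8.72, 8.84 and 8.58 on ketogenic replicates 1 to 5. Ketogenic replicate 2 was the 1 ketogenic array inside the control range, and of 11 fits that each omitted 1 array, 3 called the gene, and its adjusted p was 0.0619 to 0.0929 when any 1 of control replicates 1, 2, 3, 4 and 5 or ketogenic replicates 1, 4 and 5 was omitted. Of 14 other settings that kept all arrays, 9 called Mpc2. Over all alternatives its log2 fold change ran from -0.26 to -0.10 (adjusted p = 0.0248 to 0.816, limma).

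The citrate cycle held 4 of the 5 called genes. Idh2 encodes the mitochondrial isocitrate dehydrogenase that makes NADPH. Idh2 ran from 7.46 to 7.76 on the control arrays, with a median of 7.56, and lay at 7.94, 8.01, 7.89, 7.81 and 7.81 on ketogenic replicates 1 to 5. Every ketogenic array lay above every control array, by a narrow gap between control replicate 6 and ketogenic replicates 4 and 5. The difference was 22.3% (95% interval 9.18 to 37.0%), with means of 7.60 ± 0.12 (SD, n = 6) and 7.89 ± 0.09 (SD, n = 5). The fit gave log2 fold change 0.29, SE 0.08, adjusted p = 0.0230, limma, and of 11 fits that each omitted 1 array, 8 called the gene, and its adjusted p was 0.0503 to 0.0631 when any 1 of control replicate 2 or ketogenic replicates 1 and 2 was omitted. With the Gapdh and actin end ratios as covariates its log2 fold change was 0.16 (SE 0.14). Idh1, the cytosolic enzyme with the same reaction, was at -0.20 (SE 0.10, adjusted p = 0.179, limma).

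Idh3g encodes the regulatory gamma subunit of the NAD-dependent isocitrate dehydrogenase, the enzyme of the cycle proper. Idh3g ran from 8.66 to 8.90 on the control arrays, with a median of 8.77, and lay at 9.12, 9.06, 8.96, 8.998 and 8.92 on ketogenic replicates 1 to 5. Again the groups did not overlap, with ketogenic replicates 1 and 2 highest. The difference was 17.8% (95% interval 7.14 to 29.5%), with means of 8.78 ± 0.10 (SD, n = 6) and 9.01 ± 0.08 (SD, n = 5). The fit gave log2 fold change 0.24, SE 0.06, adjusted p = 0.0256, limma, and of 11 fits that each omitted 1 array, 7 called the gene, and its adjusted p was 0.0567 to 0.0645 when any 1 of control replicate 2 or ketogenic replicates 1, 2 and 4 was omitted. With the Gapdh and actin end ratios as covariates its log2 fold change was 0.11 (SE 0.12). The other subunits of the enzyme did not pass the test. For its catalytic alpha subunit, Idh3a ran from 8.73 to 9.12 on the control arrays, with a median of 8.82, and lay at 8.80, 8.98, 8.83, 8.87 and 8.67 on ketogenic replicates 1 to 5. The groups overlapped, and the log2 fold change of Idh3a was -0.04 and that of Idh3b 0.02 (adjusted p = 0.781 and 0.821, limma).

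Succinyl-CoA synthetase, the step of the cycle that forms ATP or GTP directly, had 2 of its 3 subunit genes called lower. Suclg1 encodes its alpha subunit. Suclg1 ran from 8.45 to 8.66 on the control arrays, with a median of 8.57, and lay at 8.39, 8.47, 8.05, 8.39 and 8.20 on ketogenic replicates 1 to 5. The groups overlapped only through ketogenic replicate 2, while ketogenic replicate 3 was lowest. The difference was -16.0% (95% interval -25.2 to -5.70%), with means of 8.55 ± 0.08 (SD, n = 6) and 8.30 ± 0.17 (SD, n = 5). The fit gave log2 fold change -0.25, SE 0.08, adjusted p = 0.0423, limma, and of 11 fits that each omitted 1 array, 2 called the gene, and its adjusted p was 0.0503 to 0.0938 when any 1 of control replicates 1, 2, 3, 4 and 5 or ketogenic replicates 1, 3, 4 and 5 was omitted. With the Gapdh and actin end ratios as covariates its log2 fold change was -0.42 (SE 0.14). Under other scalings of the arrays its log2 fold change was -0.21 with the deposited scaling and -0.18 with 75th percentile centring and was not called (adjusted p = 0.0646 and 0.113, limma).

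Sucla2 encodes the beta subunit of the ATP-forming enzyme. Sucla2 ran from 9.27 to 9.33 on the control arrays, with a median of 9.30, and lay at 9.15, 9.16, 9.18, 9.12 and 9.11 on ketogenic replicates 1 to 5. Here the arrays of each diet lay very close together and the groups did not overlap. The difference was -10.3% (95% interval -16.2 to -3.93%), with means of 9.30 ± 0.02 (SD, n = 6) and 9.14 ± 0.03 (SD, n = 5). The fit gave log2 fold change -0.16, SE 0.05, adjusted p = 0.0349, limma, and of 11 fits that each omitted 1 array, 3 called the gene, and its adjusted p was 0.0537 to 0.0846 when any 1 of control replicates 2, 3, 4 and 5 or ketogenic replicates 1, 2, 4 and 5 was omitted. With the Gapdh and actin end ratios as covariates its log2 fold change was -0.14 (SE 0.09). Under other scalings its log2 fold change was -0.04 with the deposited scaling and -0.01 with 75th percentile centring, with no call (adjusted p = 0.572 and 0.928, limma), so that this call rested on the scaling. Suclg2, the beta subunit of the GTP-forming enzyme and a gene of the wider pathway list, was at 0.16 (adjusted p = 0.138, limma) and was not called.

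**Figure D3:**
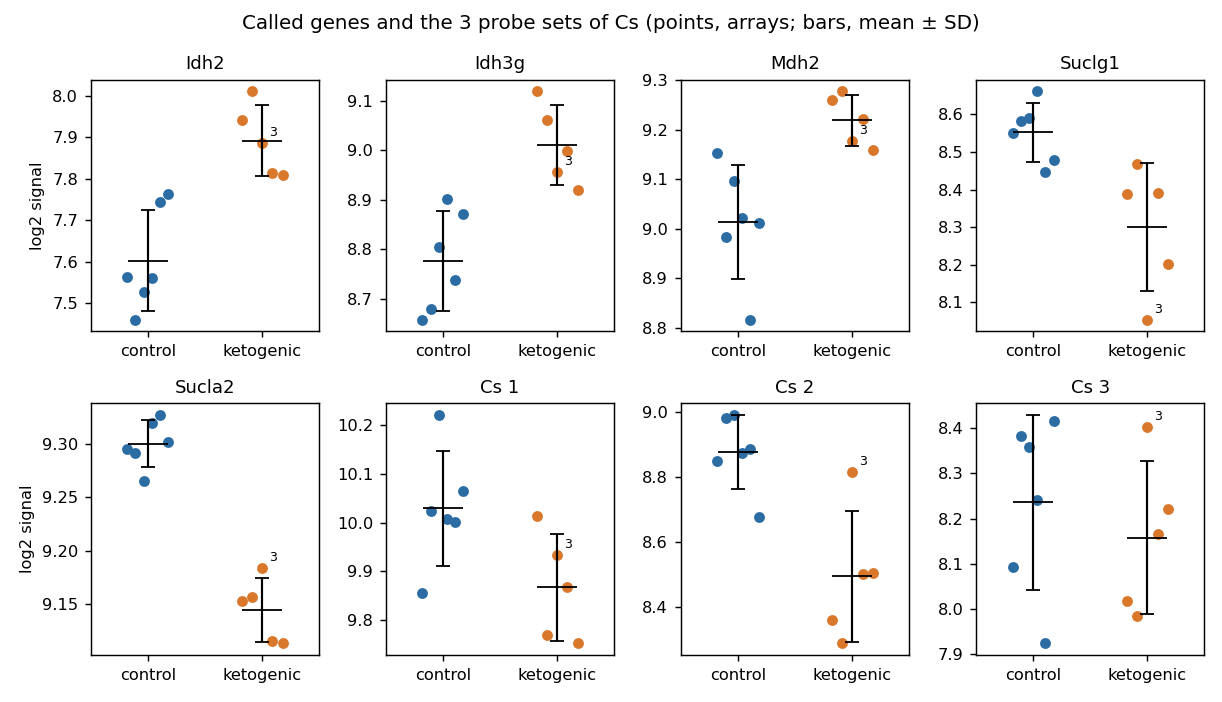
Points are arrays, with control in blue and ketogenic in orange, bars give mean ± SD of the log2 signal, and the ketogenic replicate 3 is marked; each panel has its own axis. Idh2, Idh3g, Mdh2 and Sucla2 do not overlap between diets, Suclg1 overlaps through 1 array, and of the 3 probe sets of Cs, in order of signal, the second was called lower.

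Cs, citrate synthase, which joins acetyl-CoA to oxaloacetate, had 3 tested probe sets with negative signs. For the one that represents the gene, the signal ran from 9.86 to 10.22 on the control arrays, with a median of 10.02, and lay at 10.01, 9.77, 9.93, 9.87 and 9.75 on ketogenic replicates 1 to 5. The groups overlapped, at -10.6% (95% interval -19.0 to -1.39%) (log2 fold change -0.16, SE 0.07, adjusted p = 0.105, limma). A further probe set was called lower, at -0.38 (SE 0.09, adjusted p = 0.0138, limma). There, the signal ran from 8.68 to 8.99 on the control arrays, with a median of 8.88, and lay at 8.36, 8.29, 8.81, 8.50 and 8.51 on ketogenic replicates 1 to 5, with ketogenic replicate 3 and control replicate 6 in the other group's range. The last was at -0.08 (adjusted p = 0.619, limma), so the probe sets shared a sign and not a call. With array weights the gene was called lower, at -0.19, and the mean of its probe sets was at -0.21 (adjusted p = 0.0483 and 0.0568, limma). Under other scalings Cs was at -0.042 with the deposited scaling and -0.009 with percentile centring, with no call (adjusted p = 0.678 and 0.940, limma). Ogdh encodes the first enzyme of the oxoglutarate dehydrogenase complex: Ogdh ran from 8.88 to 9.12 on the control arrays, with a median of 9.06, and lay at 8.83, 8.72, 9.13, 8.89 and 8.85 on ketogenic replicates 1 to 5. Its difference was -9.78% (95% interval -19.1 to 0.649%) (adjusted p = 0.175, limma), and without ketogenic replicate 3, the highest array, it was called lower at -0.21 (adjusted p = 0.0257, limma). That was the 1 fit that called Ogdh of 11 that each omitted 1 array. Ogdh was at -0.062 with the deposited scaling and -0.029 with percentile centring, with no call (adjusted p = 0.556 and 0.802, limma). Dlst, of the same complex, was at 0.12, and Aco1, the cytosolic aconitase, at -0.05. The 11 citrate cycle genes thus had 4 positive and 7 negative signs and a median of -0.05, and the mean of their log2 signals relative to the control mean was -0.04 to 0.02 in controls and -0.08 to 0.0027 in ketogenic samples. Groups did not overlap for 3 of these 11 genes and for 4 of all 42, against 7.29% of all genes and 6.99% of all probe sets.

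The malate-aspartate shuttle carries reducing equivalents of glycolysis into mitochondria, and its enzymes had positive signs in 4 of 4 genes. Mdh2, the mitochondrial malate dehydrogenase that also closes the citrate cycle, was the 1 gene called. Mdh2 ran from 8.82 to 9.15 on the control arrays, with a median of 9.02, and lay at 9.26, 9.28, 9.18, 9.22 and 9.16 on ketogenic replicates 1 to 5. All 5 ketogenic arrays lay above all controls, with control replicate 1 close below them. The difference was 15.3% (95% interval 5.09 to 26.5%), with means of 9.01 ± 0.11 (SD, n = 6) and 9.22 ± 0.05 (SD, n = 5). The fit gave log2 fold change 0.21, SE 0.06, adjusted p = 0.0396, limma, and of 11 fits that each omitted 1 array, 4 called the gene, and its adjusted p was 0.0532 to 0.0923 when any 1 of control replicates 2, 4 and 5 or ketogenic replicates 1, 2, 4 and 5 was omitted. With the Gapdh and actin end ratios as covariates its log2 fold change was 0.07 (SE 0.11). Mdh1, its cytosolic partner, was at 0.07 (adjusted p = 0.444, limma) by the probe set that represents it and at 0.32 by another (adjusted p = 0.0617, limma). The aspartate aminotransferases Got1 and Got2 were at 0.11 and 0.03. The mean of the 4 genes relative to the control mean was -0.11 to 0.07 in controls and 0.06 to 0.20 in ketogenic samples, where replicate 3 was highest.

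**Figure D4:**
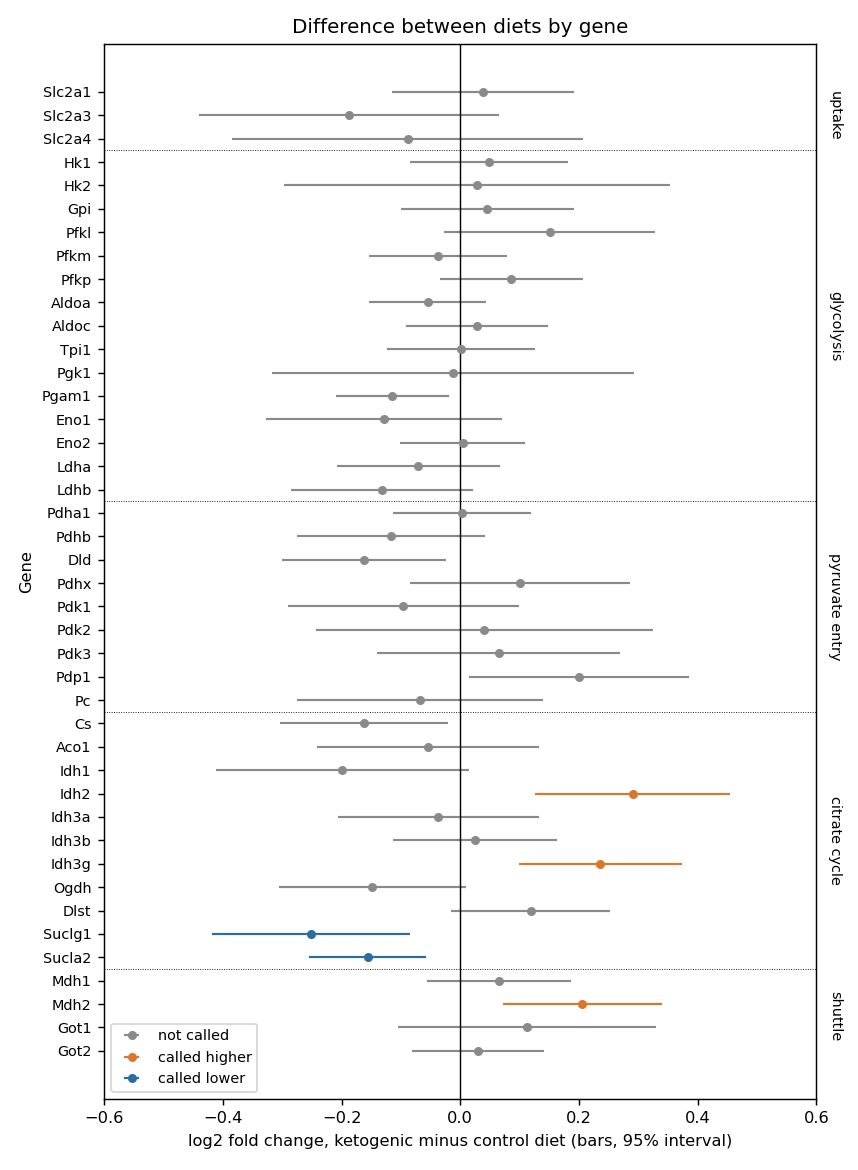
Points give the log2 fold change, ketogenic minus control diet, of each of the 42 genes with its 95% interval as a bar, ordered by step. Grey genes were not called; the 3 genes called higher (orange) and the 2 called lower (blue) all lie in the citrate cycle or the shuttle.

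Other genes of the pathway, 48 tested of 69 listed, had 4 members higher and 4 lower, or 16.7%, close to the share over all genes. Gyg1, glycogenin, which primes glycogen, rose by 0.40 (SE 0.08, adjusted p = 0.00709, limma). Gyg1 ran from 7.67 to 7.94 on the control arrays, with a median of 7.76, and lay at 8.22, 8.29, 7.98, 8.27 and 8.21 on ketogenic replicates 1 to 5. The groups did not overlap, with ketogenic replicate 3 nearest to the controls, and all 11 fits that omitted 1 array kept the call. Fitted with both end ratios as covariates, Gyg1 was at 0.15 (SE 0.13, adjusted p = 0.920, limma) and was not called. Pygm, a glycogen phosphorylase best known from muscle, fell by 0.26 (adjusted p = 0.0445, limma), where the highest ketogenic array lay just below the lowest control, but the mean of its probe sets had the opposite sign, at 0.26. Bpgm, which makes a red cell regulator from a glycolytic intermediate, rose by 0.34, and Gpd2, the mitochondrial glycerol phosphate dehydrogenase of another redox shuttle, by 0.45 (adjusted p = 0.0358 and 0.0481, limma). With the end ratios as covariates the sign of Gpd2 turned, to -0.08 (SE 0.23). Rpia, of the pentose phosphate pathway, fell by 0.34 (adjusted p = 0.0440, limma). Succinate dehydrogenase, which follows succinyl-CoA synthetase in the cycle, had subunits in opposite directions. Sdha, its flavoprotein, rose by 0.20, and Sdhc, a membrane anchor, fell by 0.28 (adjusted p = 0.0393 and 0.0267, limma). Among 11 genes of exits and shuttles, such as malic enzymes and mitochondrial carriers, 0 were called in limma and 2 had an unadjusted p under 0.05 (Slc25a10 and Slc25a12, named after their values were seen).

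Apart from Gyg1, calls of these genes depended on single arrays. For Pygm, of 11 fits that each omitted 1 array, 3 called the gene, and its adjusted p was 0.0664 to 0.0948 when any 1 of control replicates 2, 3, 4 and 5 or ketogenic replicates 1, 2, 4 and 5 was omitted. For Bpgm, of 11 fits that each omitted 1 array, 4 called the gene, and its adjusted p was 0.0521 to 0.0952 when any 1 of control replicates 1, 2, 4 and 5 or ketogenic replicates 1, 2 and 4 was omitted. For Gpd2, of 11 fits that each omitted 1 array, 3 called the gene, and its adjusted p was 0.0727 to 0.115 when any 1 of control replicates 1, 2, 3 and 5 or ketogenic replicates 1, 2, 4 and 5 was omitted. For Rpia, of 11 fits that each omitted 1 array, 2 called the gene, and its adjusted p was 0.0588 to 0.112 when any 1 of control replicates 1, 2, 3, 4 and 6 or ketogenic replicates 1, 2, 4 and 5 was omitted. For Sdha, of 11 fits that each omitted 1 array, 4 called the gene, and its adjusted p was 0.0507 to 0.101 when any 1 of control replicates 1, 2, 5 and 6 or ketogenic replicates 1, 4 and 5 was omitted. For Sdhc, of 11 fits that each omitted 1 array, 6 called the gene, and its adjusted p was 0.0565 to 0.0670 when any 1 of control replicates 2 and 3 or ketogenic replicates 1, 2 and 5 was omitted. Of 14 other settings that kept all arrays, 8 called Sdhc and 9 called Sdha. Over all alternatives the log2 fold change of Sdhc ran from -0.34 to -0.097 (adjusted p = 0.00316 to 0.954, limma). That of Sdha ran from 0.15 to 0.36 (adjusted p = 0.00370 to 0.904, limma).

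Marker genes of cell types were measured beside these genes, and their counts of called genes stand against 8.85% higher and 8.03% lower of all genes tested. Neuronal markers had 0 of 9 tested genes called in limma, 1 with an unadjusted p under 0.05, and a median log2 fold change of -0.01, and markers of hippocampal principal neurons 1 of 7, Camk2a, which rose by 1.34. Camk2a varied widely among the controls, at 8.38, 8.90, 9.41, 9.41, 9.56 and 10.21 on control replicates 1 to 6. On the ketogenic arrays it ran from 10.40 to 10.93. Neurod6 had no probe set of its own and Spink8 was not tested. Red cell markers had 4 lower and 1 higher of 5, and their summed signal did not overlap, at 1318 to 1789 on control and 491 to 590.0 on ketogenic arrays; the 1 higher was Bpgm. Astrocyte markers had 2 lower of 9 (Gfap at -0.39 and Aqp4 at -0.33), while Fgfr3, Slc1a3 and Gja1 were at 0.25, 0.23 and 0.12 without a call, with summed signals of 9843 to 10769 on control and 9323 to 10927 on ketogenic arrays. Oligodendrocyte markers had 2 lower of 8, microglial markers 2 of 7 and endothelial markers 1 of 6, with medians of -0.16, -0.19 and -0.21. Choroid plexus markers had 3 lower of 7, with summed signals of 787 to 2296 on control and 561 to 1117 on ketogenic arrays, and meningeal markers 2 of 10, with 1476 to 4062 on control and 1089 to 2614 on ketogenic arrays. Among the microglial markers C1qb and C1qc were at 0.31 and 0.33 without a call. Muscle markers had 2 lower of 5, one of them Pygm. The part of any of these in the differences of the metabolic genes was not tested.

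**Figure D5:**
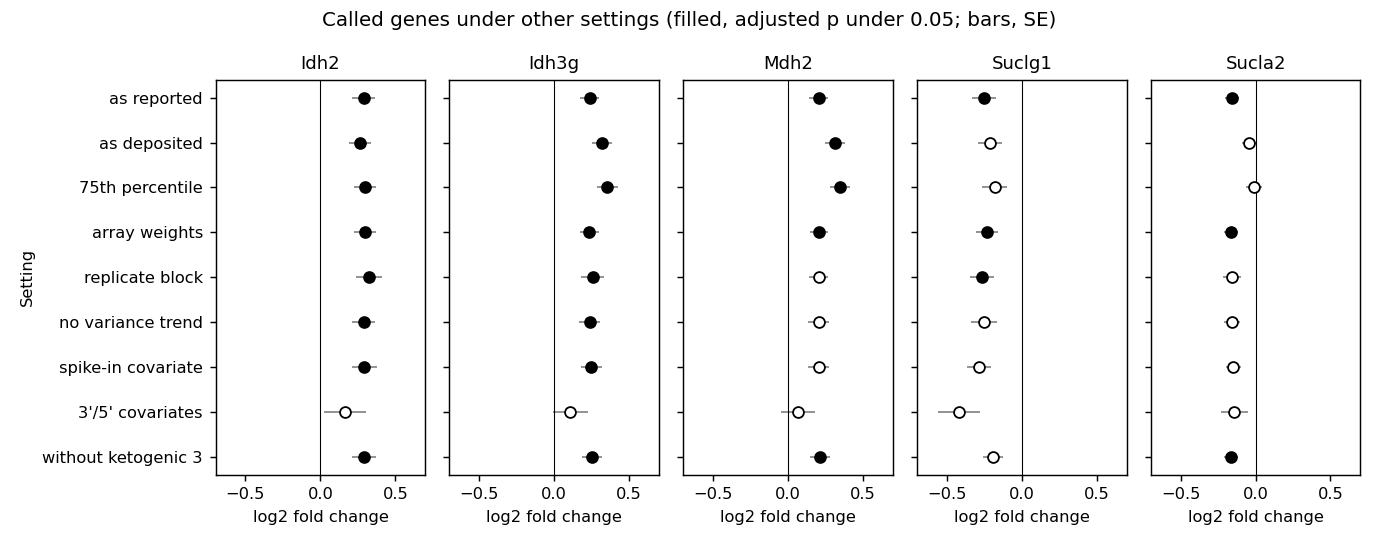
Log2 fold change (points) and SE (bars) of the 5 called genes under the reported setting and 8 others; filled points have an adjusted p under 0.05 in limma. Idh2, Idh3g and Mdh2 are filled under all 3 scalings, Suclg1 and Sucla2 under 1 of them, and with the 3 prime to 5 prime covariates none is filled.

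How the arrays were scaled moved genes of the pathway in both directions. From the reported to the deposited scaling, Hk2 went from 0.03 to -0.18 and Slc2a4 from -0.09 to -0.28. Hk1 went from 0.05 to 0.17 and Eno2 from 0.004 to 0.14. On the values as deposited, whose medians ran from 79.9 to 94.2 and were lower on the ketogenic diet, 6 of the 42 genes were called higher and 0 lower. Over the array 23.9% of all genes were then called, against 16.9% in the reported setting. Of the calls 38.3% were higher, against 52.3% in the reported setting. The glycolysis median was then 0.11, while the median over all genes was -0.05 and that over the brightest 25% of genes 0.08. Centred on the 75th percentile, 7 were called higher and 0 lower, with 23.2% of all genes called and 49.4% of all calls higher. The glycolysis median was 0.14 and that of the brightest 25% 0.12. Idh2, Idh3g and Mdh2 were called higher under all 3 scalings. Pfkp, Eno2 and Mdh1 were called higher under both other scalings, and Got2 under the second. On the deposited values 7 of the 42 genes turned from a negative to a positive sign (Pfkm, Aldoa, Pgk1, Pgam1, Ldha, Pdhb and Idh3a) and 2 the other way (Hk2 and Pdk3). With centring the same 9 turned, and Eno1 and Ldhb also became positive. With 1 array left out, 0 to 6 of the 42 were called. Calls over all genes moved as well, from 6.85% without ketogenic replicate 4 to 26.9% without ketogenic replicate 3. These counts of the 42 are therefore no measure of the pathway genes alone. The count was 0 without control replicate 2 or ketogenic replicate 1, where 10.1% and 10.2% of all genes were called. It was 1 without ketogenic replicate 2 or 4, where 7.16% and 6.85% of all genes were called. It was 2 without control replicates 4 or 5, 3 without control replicate 3 or ketogenic replicate 5, 4 without control replicate 1, 5 without control replicate 6 and 6 without ketogenic replicate 3.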

How the data were processed

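The 11 arrays measured total RNA from rat hippocampus, with groups and replicate numbers taken from the sample titles. The values deposited by the authors are linear probe set intensities. How they were made from the scans is not given in the sources used here, and their mean was 150.02 to 150.03 on every array once 2% at each end was trimmed. Since medians of log2 intensities spanned 0.24 between arrays, arrays were quantile normalized on the log2 scale. Signals under the 5th percentile (4.99) were set to it. The test left out 57 control probe sets and the dimmest 25% of probe sets (mean log2 under 5.16). The diets were compared with limma 3.58.1 in R 4.3.3 (eBayes with a variance trend, two-sided, Benjamini-Hochberg over 11899 probe sets). Where a gene had several tested probe sets, the brightest stood for it. Named in full were the called genes and a fixed set of step genes. Pgam1 was added to them once its values were seen, as the glycolysis gene nearest to a call. Members, lists and rules were chosen with earlier results of these data known. The fit was tested on simulated data. Gene symbols came from the platform annotation, updated through a RefSeq table (GRCr8), and promoters from RefSeq. Marker lists covered neurons, hippocampal neurons, astrocytes, oligodendrocytes, microglia, endothelium, choroid plexus, meninges, red cells and muscle. For arrays, their number limits the precision. Alternatives were other scalings, floors, filters and variance models, array weights, a replicate block, covariates, a threshold of 0.1, the mean of a gene's probe sets, and each array left out. No label gave a batch or scan date, and a batch that followed the diets cannot be told apart from diet.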

Additional observations from a re-analysis of the deposited data

Results flagged for a closer look

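Among 90 groups of values, 5 held 1 array far from the others of its diet, where chance gives about 1 in 20, or 4.5. Ketogenic replicate 3 was that array in 3 of the 5. For the glycogenin gene Gyg1 that array lay at 7.98, against 8.21 to 8.29 on the other ketogenic arrays. The mean of the malate-aspartate shuttle genes, relative to the control mean, was 0.20 there, against 0.06 to 0.09. The mean of all 42 genes was 0.0232, against -0.0205 to -0.0104. Control replicate 5 was low for the pentose phosphate gene Rpia, at 7.27 against 7.48 to 7.60. Control replicate 6 was low at the 3 prime hexokinase control probe set, at 7.02 against 7.50 to 7.71.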

How the results depend on the processing

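The count of called members was 5. It stayed within 1.5 times that under other floors and filters, a robust trend, array weights, the probe set mean, a threshold of 0.1 and both other scalings. Under both other scalings, however, the calls were 6 and 7 higher and 0 lower, so that neither Suclg1 nor Sucla2 was called. Across the settings just named, 9.63% to 26.6% of all genes were called. The count of members was 2 without a variance trend and 2 with a spike-in covariate, against 13.5% and 7.73% of all genes. It was 0 with the 3 prime to 5 prime covariates, where 2 of 42 had an unadjusted p under 0.05 in limma. With 1 array left out it was 0 to 6, against 6.85% to 26.9% of all genes. Over the array, 1961 probe sets were called, 3137 with array weights, 907 with the spike-in covariate, 6 with the 3 prime to 5 prime covariates, 3071 at a threshold of 0.1 and 798 to 3165 with 1 array left out. The labels do not say that equal replicate numbers pair samples, and deviations of equal numbers correlated at 0.00888 to 0.0771. With the replicate block 1815 probe sets and 4 members were called, Idh2 and Idh3g higher, Idh1 and Suclg1 lower. Step medians moved by more than the spread between control arrays as follows. As deposited, glycolysis was at 0.11 and the shuttle at 0.21. Centred on the 75th percentile, glycolysis was at 0.14, the citrate cycle at -0.00792 and the shuttle at 0.25. With the 3 prime to 5 prime covariates, glucose uptake was at 0.082, pyruvate entry at -0.069 and the citrate cycle at -0.00657. With 1 array left out, the citrate cycle ran from -0.097 to -0.052. Among the genes followed through every setting, signs turned for Pfkm (0.094 as deposited, 0.13 centred), Ldha (0.054, 0.087, and 0.053 with the 3 prime to 5 prime covariates), Pdhb (0.00313, 0.036) and Idh3a (0.039, 0.072). They also turned for Ldhb (0.025 centred), Pdk2 (-0.076) and Gpd2 (-0.076) with those covariates, and Pdha1 (-0.015 with array weights, -0.0056 with the block). With the probe set mean Pdha1 was at -0.13 and Pygm at 0.26. With 1 array left out, Pdha1 ran from -0.024 to 0.031, Idh3a from -0.073 to 0.013, Pdk2 from -0.020 to 0.15 and Slc2a1 from -0.0027 to 0.067. The cause of these shifts was not tested.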

Other observations

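Differences between related genes within an array were computed for 10 pairs, as descriptions with no test and relative to the control mean. Mitochondrial Idh2 minus cytosolic Idh1 moved most, by 0.49 on the log2 scale (0.45 on the values as deposited), at -0.42 to 0.39 on control and 0.36 to 0.78 on ketogenic arrays. The values overlapped by a narrow margin. Neuronal Slc2a3 minus Slc2a1 moved by -0.23, at -0.36 to 0.29 on control and -0.49 to -0.017 on ketogenic arrays. Ldha minus Ldhb moved by 0.061, Eno2 minus Eno1 by 0.13, Aldoc minus Aldoa by 0.082 and Pfkp minus Pfkm by 0.12. Mdh2 minus Mdh1 moved by 0.14, Got2 minus Got1 by -0.083 and Pdk2 minus Pdp1 by -0.16. On the values as deposited Pdk2 minus Pdp1 moved by -0.086. Hk2 minus Hk1 was at -0.021 after normalization and -0.35 as deposited. In all 10 pairs the groups overlapped.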
